A study of Rattus norvegicus with 7 samples.

Results

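*Creb3l1* (ENSRNOG00000005413) and *Eprs* (ENSRNOG00000002393) were followed through 7 RNA-sequencing libraries of rat adrenal gland. They are 2 of 32754 genes counted and both are among the 13892 genes with at least 10 counts in every library. Both were picked because earlier work on these libraries had shown them to be higher under chronic shock, so their differences between groups are given here as descriptions and without a p-value. All rats were male Sprague-Dawley animals, and each library was a pool of adrenal RNA from 8 to 9 of them. The 3 control libraries came from unstressed rats housed 3 to a cage. The 2 chronic shock (CS) libraries came from rats that lived alone on a metal grid and received foot shocks at unpredictable times. They were also kept in a different room from the other groups. Shock, grid, room and solitary housing therefore cannot be told apart in this group. The 2 chronic variable stress (CVS) libraries came from rats given a changing series of physical, psychological and social stressors, some of which were foot shocks. Both protocols ran for 3 weeks from postnatal day 28 to 49, and tissue was taken on day 50 or 51.

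Secretory cells fold and modify proteins in the endoplasmic reticulum. *Creb3l1* (also called *Oasis*) encodes a transcription factor of the CREB3 family that is made as a membrane protein of the endoplasmic reticulum. On certain stress signals it moves to the Golgi apparatus, where proteases cut it and its amino-terminal part enters the nucleus; it is best known in cells that secrete much matrix or hormone. *Eprs* encodes the bifunctional enzyme that charges transfer RNAs with glutamic acid and with proline for protein synthesis. Its protein is part of the cytosolic multisynthetase complex, and transcription of many synthetase genes is driven by ATF4, the main factor of the integrated stress response. The adrenal gland joins a steroid-producing cortex and a catecholamine-secreting medulla. In whole-gland RNA, a change in the share of a cell type and a change in RNA per cell cannot be told apart.

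The 250 bases upstream of each gene's start show which short elements of these stress pathways lie next to the 2 genes. They were taken from the RefSeq promoter table for GRCr8, a later build than the Rnor_6.0 build on which the reads were counted, and run 5′ to 3′ on the gene's strand with the base nearest the start last. Capitals mark matches, on either strand, to CCACG (the 3′ part of the endoplasmic reticulum stress element), TGACG (the core of the cyclic AMP response element) or ACGTG (the core of the unfolded protein response element).
*Creb3l1* (chr3:98449105-98449354, minus strand): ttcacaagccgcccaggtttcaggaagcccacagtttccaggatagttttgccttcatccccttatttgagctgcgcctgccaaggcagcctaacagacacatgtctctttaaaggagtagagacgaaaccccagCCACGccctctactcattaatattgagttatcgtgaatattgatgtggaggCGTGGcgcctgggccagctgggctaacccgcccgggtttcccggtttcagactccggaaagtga
*Eprs* (listed as *Eprs1*; chr13:99433003-99433252, plus strand): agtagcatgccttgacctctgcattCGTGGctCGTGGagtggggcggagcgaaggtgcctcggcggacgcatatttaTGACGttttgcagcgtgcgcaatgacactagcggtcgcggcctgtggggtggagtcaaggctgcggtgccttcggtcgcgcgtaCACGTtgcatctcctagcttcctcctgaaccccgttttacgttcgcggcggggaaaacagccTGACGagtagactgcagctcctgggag

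In the *Creb3l1* window, CCACG was found with its first base 115 and 64 bases before the start, and neither TGACG nor ACGTG was found. The *Eprs* window held CCACG at 225 and 218, TGACG at 173 and 27 and ACGTG at 89 bases before the start. Of 33469 rat promoter windows of this length, 27.2% held CCACG, 18.2% TGACG and 16.6% ACGTG. The full element TGACGTCA (in 1.59% of windows), the box CCAAT (34.0%), which forms the 5′ part of the endoplasmic reticulum stress element, and TGATGNAA (3.4%), the core of the element bound by ATF4 with C/EBP factors, were found in neither window. The *Eprs* window had 25 CpG dinucleotides, more than 90.3% of windows, and a GC content of 60.8%, against 11 CpG and 53.2% for *Creb3l1* and medians of 5 CpG and 51.2% over all windows. These matches are letters in a window and say nothing about binding. The start used for *Eprs* lies inside the longer span that RefSeq gives the gene, so other transcripts may begin further upstream.

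Total counts ranged from 20095746 to 32242123 per library, and levels are given as normalized CPM, the counts scaled to a common library total with TMM factors of 0.956 to 1.048. Gene symbols could be assigned to 276 genes, those named in the study's own supplementary tables. Of the 9 markers fixed for adrenal cortex only *Scarb1*, the receptor that takes up lipoprotein cholesterol, had a symbol, at 2391 to 3982 normalized CPM, and of the 9 chromaffin cell markers only *Chgb*, a secretory granule protein, at 1049 to 1566. With the listed markers the tissue label could therefore be checked on 1 gene for each compartment, and both were abundant in all 7 libraries.

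*Creb3l1* had 10.4, 10.02 and 9.63 normalized CPM in the 3 control libraries, 17.6 and 14.9 in the 2 CVS libraries and 34.5 and 66.4 in the 2 CS libraries. All 3 groups were separate, with both CVS libraries above every control library and both CS libraries above both CVS libraries. The mean of the 3 control libraries was 10.02 ± 0.387 (SD), that of the 2 CVS libraries 16.3 ± 1.92 and that of the 2 CS libraries 50.4 ± 22.6. These levels rested on 225 to 351 counts per control library, 296 and 561 counts in CVS, and 1076 and 1692 counts in CS. At this depth the 95% Poisson intervals, which cover counting error only, ran from 8.41 to 11.5 normalized CPM over the control libraries, from 13.3 to 19.1 over the CVS libraries and from 32.4 to 69.6 over the CS libraries, and the spread between the CS pools was wider than counting error. Across all genes tested, 150 (1.08%) had both CS libraries above both CVS libraries and both CVS libraries above all control libraries.

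*Eprs* had 241, 241 and 283 normalized CPM in the control libraries, 255 and 238 in the CVS libraries and 466 and 554.07 in the CS libraries. The CVS values overlapped the control values, whereas both CS libraries were above all 5 others. The mean of the control libraries was 255 ± 24.5 (SD), with 246 ± 12.4 for CVS and 510 ± 62.1 for CS. *Eprs* was counted 4713 to 14564 times per library. Both *Creb3l1* and *Eprs* had the 2 CS libraries on top, as did 1077 of the genes tested (7.75%). Levels of the 2 genes were not set against each other, because the counts were not divided by transcript length.

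**Figure D1:**
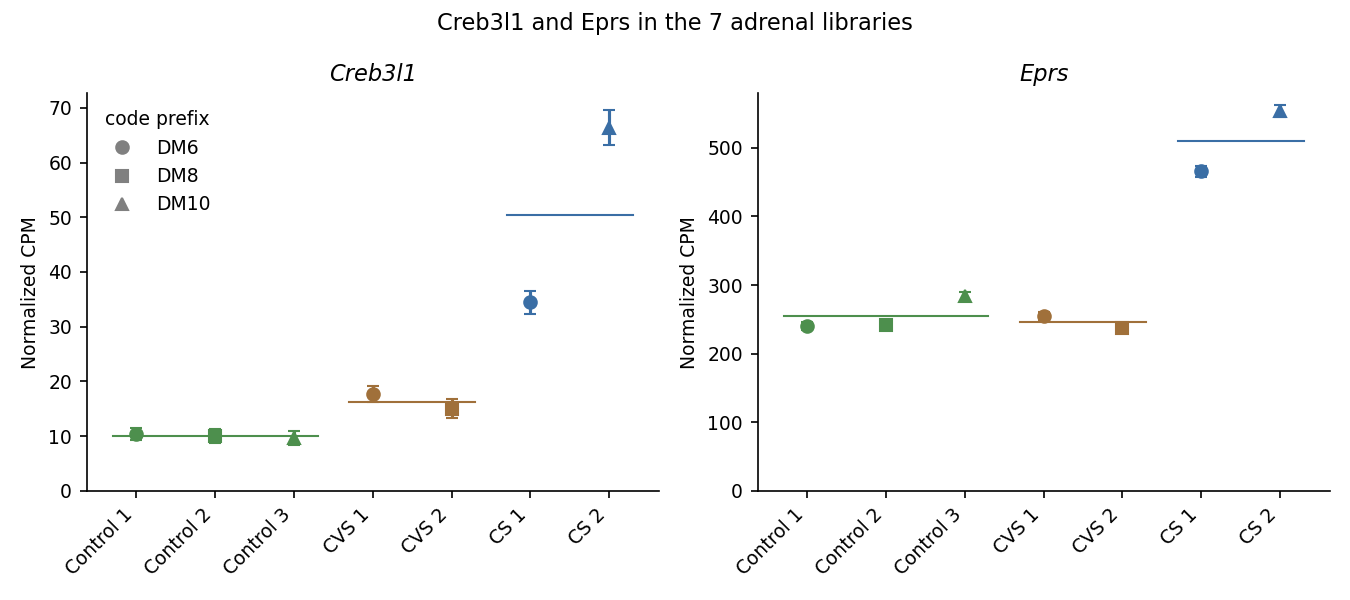
Normalized CPM (vertical axes, from 0) of *Creb3l1* (left) and *Eprs* (right) in each library, with points coloured by group and shaped by library code prefix. Vertical bars are 95% Poisson intervals of the count and horizontal lines are group means; *Creb3l1* steps up from control to CVS to CS and its CS libraries lie at 34.5 and 66.4, whereas the CVS values of *Eprs* (255 and 238) lie within or just below the control range of 241 to 283.

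The comparison of CS with control asks what the shock protocol changed in the gland. The log2 fold change of *Creb3l1* was 2.33 (standard error 0.241, 95% interval 1.56 to 3.09 from 3 residual degrees of freedom), 5.02-fold, the 5th highest of 13892 genes. For *Eprs* it was 1.00 (standard error 0.112, 95% interval 0.645 to 1.36), 2.00-fold and the 73rd highest. A log2 fold change of 1 or more was reached by 72 genes (0.518%), *Creb3l1* among them, and *Eprs* was the gene just below that line. The median over all genes tested was 0.00528. With edgeR's quasi-likelihood test, 29 genes (0.209%) passed a Benjamini-Hochberg adjusted p of 0.05 and 1172 (8.44%) an unadjusted p of 0.05. Both genes are among the 29, which follows from how they were picked. The number of genes passing was 418 with the replicate number as a block, 1 without Control replicate 1, 4 without Control replicate 2, 1 without Control replicate 3, 83 without CS replicate 1 and 4 without CS replicate 2. The gene closest inside the adjusted threshold was *Sgms2*, a sphingomyelin synthase, at a log2 fold change of 0.95 (standard error 0.134), and the closest outside was *Ptpre*, a tyrosine phosphatase, at -0.60 (standard error 0.0859).

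The comparison of CVS with control asks the same of the variable protocol. *Creb3l1* had a log2 fold change of 0.70 (standard error 0.128, 95% interval 0.296 to 1.11), 1.63-fold and the 108th highest of all genes. *Eprs* had -0.05 (standard error 0.0995, 95% interval -0.367 to 0.267). In this comparison 13 genes (0.0936%) passed the adjusted threshold, neither *Creb3l1* nor *Eprs* among them, and 896 (6.45%) an unadjusted p of 0.05. The number passing was 817 with the replicate block, 7, 6 and 0 without Control replicate 1, 2 and 3, and 1 without CVS replicate 1.

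The comparison of CS with CVS asks where the protocols differ. *Creb3l1* was higher in CS by 1.62 on the log2 scale (standard error 0.298, 95% interval 0.337 to 2.91 from 2 residual degrees of freedom), 3.08-fold and the 7th highest. *Eprs* was higher in CS by 1.05 (standard error 0.116, 95% interval 0.549 to 1.55), 2.07-fold and the 48th highest. *Creb3l1* had the larger estimate, but the interval of *Eprs* was the narrower and lay inside that of *Creb3l1*. At an adjusted p of 0.1, the threshold used for this comparison, edgeR's quasi-likelihood test called 0 genes (0%), with 1020 at an unadjusted p of 0.05, while DESeq2's Wald test called 45. With the replicate block edgeR called 843, and without CS replicate 1 it called 86. The CS against control and CS against CVS comparisons share the CS libraries, and the protocols share the control libraries, so their values are not independent.

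The 2 genes differed in how well the CS libraries matched. *Creb3l1* was 1.93 times as high in CS replicate 2 as in CS replicate 1, a log2 gap of 0.95, where the median gap over all genes was 0.168 and 97.3% of genes had a smaller one. For 167 genes the excess of CS replicate 2 over CS replicate 1 was larger. The same ratio for *Eprs* was 1.19, a gap of 0.25, and 65.1% of genes had a smaller one. In the control libraries the order was the opposite. The SD of log2 normalized CPM was 0.0557 for *Creb3l1*, and 13.3% of genes had a smaller SD, against 0.135 and 48.96% for *Eprs* and a median of 0.138. The CVS libraries differed by -0.24 (*Creb3l1*) and -0.10 (*Eprs*) on the log2 scale, replicate 2 minus replicate 1, where the median size was 0.158. Its biological coefficient of variation in the CS against control fit was 0.187, above the 0.110 of genes of like abundance, while *Eprs* sat on that trend at 0.105. Without CS replicate 2, the log2 fold change of *Creb3l1* in CS was 1.77, and without CS replicate 1 it was 2.73. For *Eprs* these values were 0.87 and 1.12.

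Library codes in the labels carry the prefix DM6 (Control 1, CVS 1 and CS 1), DM8 (Control 2 and CVS 2) or DM10 (Control 3 and CS 2), and the labels do not say what a prefix marks. Within DM6 *Creb3l1* was 3.31 times as high in CS as in control, and within DM10 it was 6.89 times as high. These ratios were on the same side of 1 but differed by 1.06 on the log2 scale, more than for 97.3% of genes. For *Eprs* the corresponding ratios were 1.94 and 1.96. They differed by 0.0135, less than for all but 4.89% of genes, and the median difference was 0.165. Control replicate 3, the highest control library for *Eprs*, thus shares its prefix with the higher of the CS libraries. For CVS against control, *Creb3l1* had ratios of 1.70 within DM6 and 1.49 within DM8, and *Eprs* had 1.06 and 0.985. DM6 is the only prefix with all 3 groups, and there CS was 1.95 times CVS for *Creb3l1* and 1.83 times CVS for *Eprs*. Each such ratio compares a single pair of pools and was not tested.

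**Figure D2:**
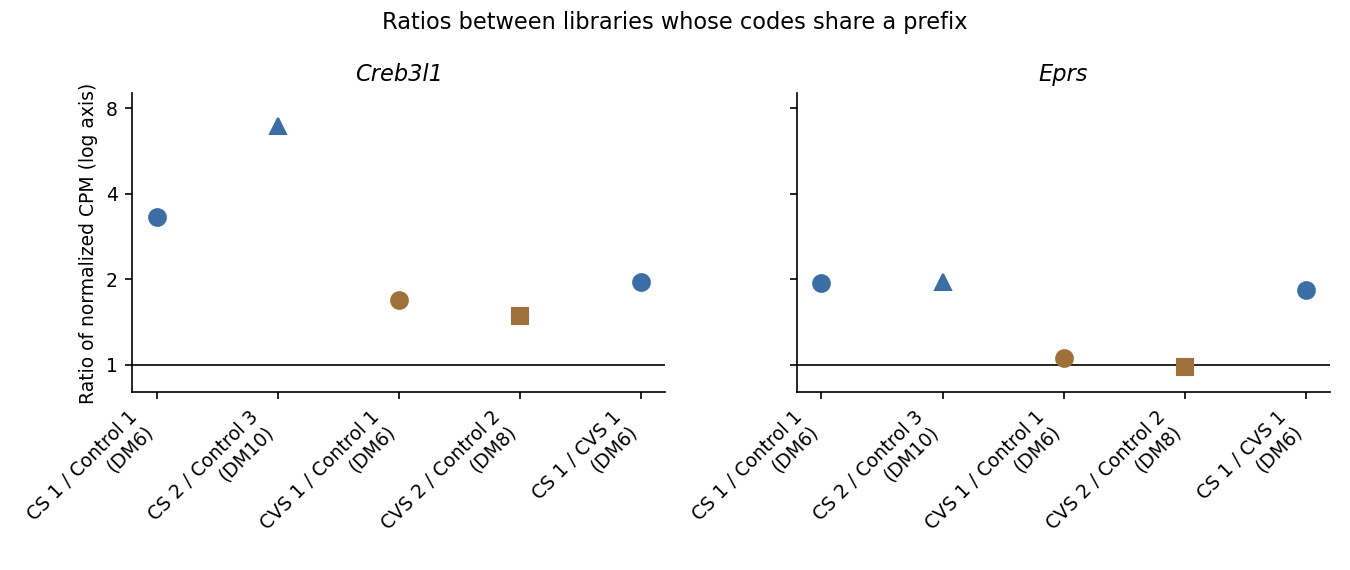
Ratio of normalized CPM (log axis, 1 marked by a line) between pairs of libraries whose codes share a prefix, for *Creb3l1* (left) and *Eprs* (right), with 1 point per pair, coloured by the numerator's group. The CS to control ratios of *Eprs* are 1.94 and 1.96, whereas those of *Creb3l1* are 3.31 and 6.89.

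The fitted values of both genes were compared across normalizations, tests and omitted libraries. The alternatives read for them were DESeq2, its size factors in edgeR, total counts only and the replicate block. All 7 libraries in 1 fit with the code prefix, and each library left out, were read as well. Their values under the other filters and the remaining fits were not read. The log2 fold change of *Creb3l1* was above 0 in all 3 comparisons under every alternative read, from 1.77 to 2.73 in CS, from 0.573 to 0.848 in CVS, and from 1.07 to 2.02 between the protocols. *Eprs* was above 0 in both comparisons with CS under every alternative read, from 0.866 to 1.12 against control and from 0.909 to 1.17 against CVS. In CVS against control its value ran from -0.10 to 0.04, on both sides of 0. The largest shifts of *Creb3l1* in the comparisons with CS came from leaving out 1 of the CS libraries.

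**Figure D3:**
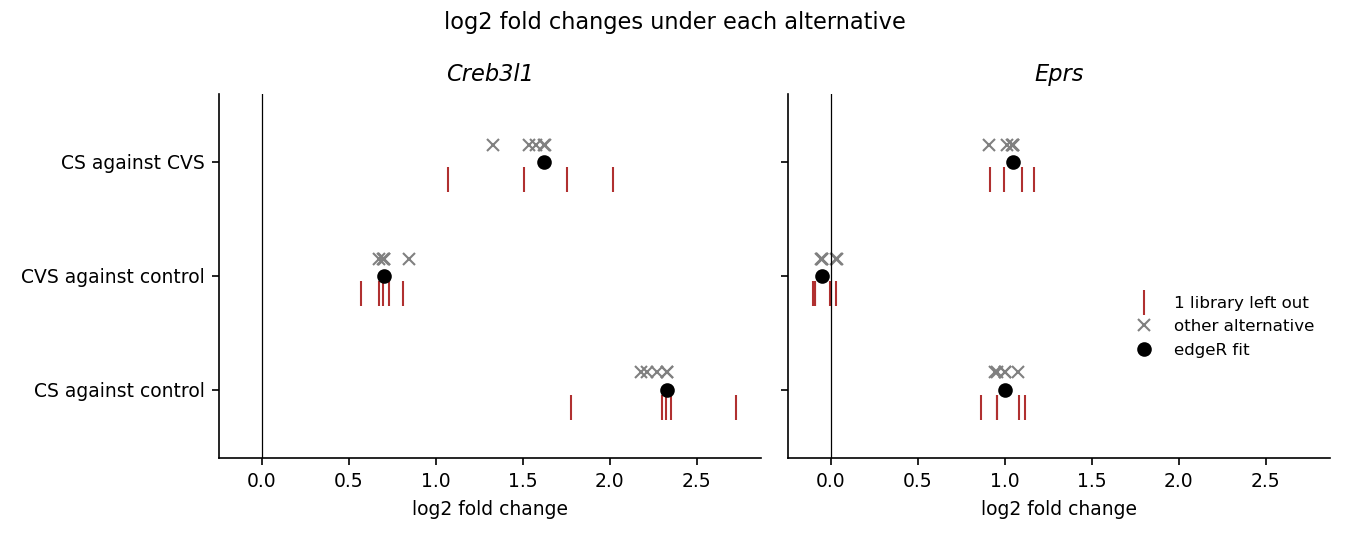
log2 fold change (horizontal axis) of *Creb3l1* (left) and *Eprs* (right) in each comparison: the filled circle is the edgeR fit, red ticks leave out 1 library each and grey crosses are the other alternatives read for these genes. Values of *Creb3l1* stay right of 0 in all comparisons but spread from 1.77 to 2.73 in CS against control, and those of *Eprs* in CVS against control lie around 0, from -0.10 to 0.04.

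*Creb3l1* and *Eprs* followed each other with a Pearson correlation of 0.918 of log2 normalized CPM over the 7 libraries, a value that the shared CS difference goes into. By this measure *Eprs* was the 88th of 13891 other genes most like *Creb3l1*, and *Creb3l1* the 93rd most like *Eprs*. A correlation over 0.9 with *Creb3l1* was found for 125 genes, and with *Eprs* for 133. Neither was thus the nearest match of the other. The genes most like each were sought among the 274 others with a symbol, which have one because the study's tables of changed genes list them, and all the correlations rest on the same 7 pools.

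The 5 named genes most like *Creb3l1* were *Gmpr* (r = 0.985), which turns GMP into IMP, *App* (0.984), the amyloid precursor protein, *Ppard* (0.979), a lipid-sensing nuclear receptor, *Nagk* (0.974), which phosphorylates N-acetylglucosamine, and *Net1* (0.972), an exchange factor for RhoA. The first 3 were also the 3 highest among all 13891 genes. All 5 had a CVS mean above the control mean and a CS mean above both, but their steps were smaller. *Gmpr* had 29.4 to 33.1 normalized CPM in control, 43.1 and 34.8 in CVS and 56.1 and 73.0 in CS, which makes its CS mean 2.08 times and its CVS mean 1.26 times the control mean. For *Creb3l1* these ratios of means were 5.03 and 1.63. The other 4 had CS to control ratios of 1.35 to 1.55 and CVS to control ratios of 1.08 to 1.14. All 5 were higher in CS replicate 2 than in CS replicate 1, by 1.11 to 1.35 times, against 1.93 times for *Creb3l1*.

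The 5 named genes most like *Eprs* were *Bop1* (r = 0.996), needed to build the large ribosomal subunit, *Ext1* (0.980), which extends heparan sulfate chains in the Golgi and endoplasmic reticulum, *Lmbr1* (0.979), a membrane protein, *Man1b1* (0.977), the mannosidase that trims glycoproteins of the endoplasmic reticulum for degradation, and *Ldah* (0.976), a hydrolase of lipid droplets. *Bop1* was the closest of all 13891 genes. It had 74.6 to 81.1 normalized CPM in control, 78.7 and 74.5 in CVS and 95.9 and 103 in CS, so its CS to control ratio was 1.29 where that of *Eprs* was 2.00. *Man1b1* had 143 to 153 in control, 155 and 157 in CVS and 236 and 315 in CS, a ratio of 1.86. *Lmbr1* had 14.1 to 16.9 in control, 16.3 and 14.7 in CVS and 30.8 and 34.2 in CS, a ratio of 2.08. The CVS to control ratios of the 5 genes were 0.980 to 1.05, and that of *Eprs* was 0.966.

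**Figure D4:**
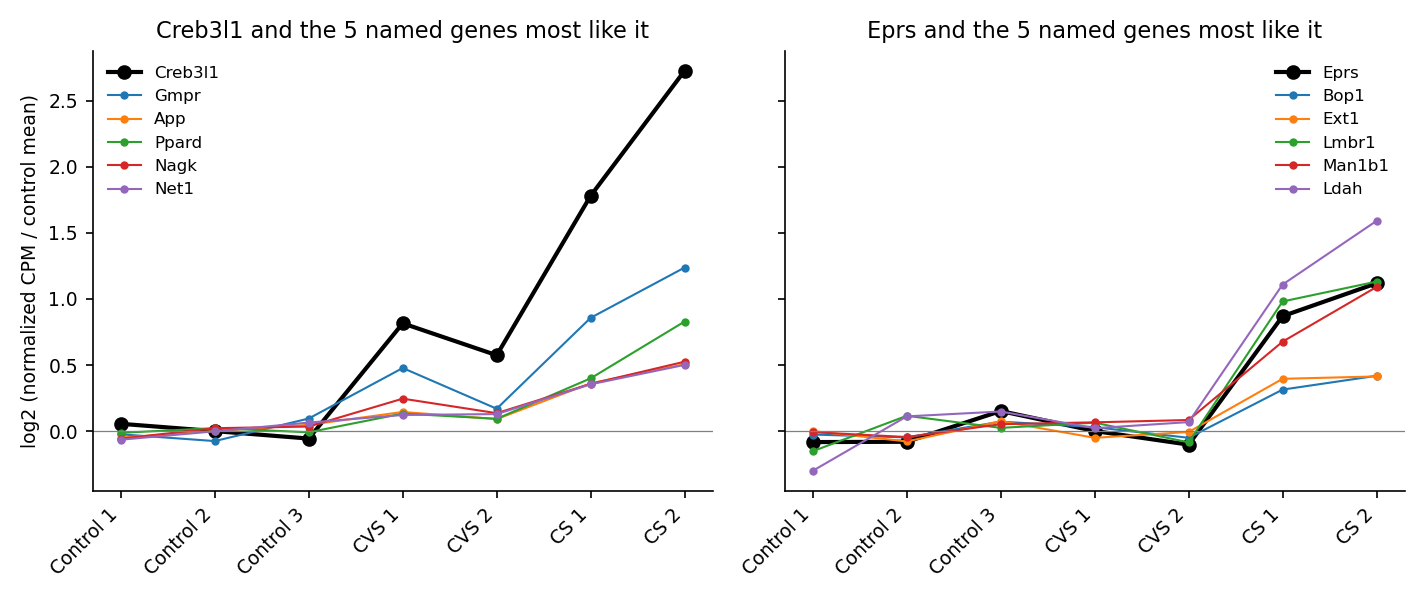
log2 of normalized CPM over the control mean (vertical axes) in the 7 libraries for *Creb3l1* (left, black), *Eprs* (right, black) and the 5 named genes whose values correlate best with each; lines join the values of 1 gene and imply no order of libraries. *Creb3l1* and the genes like it lie above 0 in both CVS and both CS libraries, while *Eprs* and the genes like it lie near 0 in CVS and above it in CS.

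The rest of both pathways could not be described as groups. Of the CREB3 family only *Creb3l1* itself had a symbol (1 of 5), and of the cytosolic synthetases only *Eprs* (1 of 20). None of the 27 genes listed for the unfolded protein response, the 29 for vesicle coats and Golgi traffic or the 24 for collagen and its processing had one. The same held for the lists of membrane-factor cleavage, mitochondrial synthetases and multisynthetase partners. Whether the name of secretory stress fits these 2 genes, or any others, was therefore not examined. Of the 33 genes listed for the integrated stress response and amino acid supply, 3 had a symbol. *Slc7a5*, a transporter of large neutral amino acids, was lower in CVS by -1.05 on the log2 scale (standard error 0.13), which passed edgeR's test at an adjusted p of 0.0488, and had -0.29 in CS, with an adjusted p of 0.607 in that test. Its level was 64.7 to 87.6 normalized CPM in control, 35.9 and 38.1 in CVS and 59.3 and 65.8 in CS. *Phgdh*, the first enzyme of serine synthesis, had -0.61 in CVS and -0.23 in CS, and *Vldlr*, a lipoprotein receptor, had -0.49 and -0.57. These 3 genes have a symbol because the study's tables list them as changed in these libraries. They therefore do not stand for the list, and the adjusted p of *Slc7a5* is no separate evidence.

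The white adipocyte list had 5 of its 7 genes with a symbol (*Adipoq*, *Plin1*, *Retn*, *Cidec* and *Fabp4*), and their summed level was 26.8 to 42.6 normalized CPM in control, 54.8 and 49.3 in CVS and 77.6 and 89.6 in CS, the same order of groups as for *Creb3l1*. *Adipoq*, the adipocyte hormone adiponectin, was 8.17 to 11.4 in control, 16.8 and 13.4 in CVS and 23.4 and 24.0 in CS. *Adipoq* and *Retn* rose in CS (edgeR, adjusted p of 0.0311 and 0.0412), whereas *Fabp4* (0.0653), *Cidec* (0.0902) and *Plin1* (0.256) did not pass in CS and none of the 5 passed in CVS, where the adjusted p ran from 0.364 (*Adipoq*) to 0.655 (*Cidec*). These 5 genes, like the other markers given here, have a symbol because the study's tables list them as changed in these libraries. Markers the study did not list could not appear. The order of groups and the adjusted p thus describe genes already picked for changing and are no separate evidence. The part of fat cells in the levels of *Creb3l1* and *Eprs* was not tested. The cortex marker *Scarb1* was 2391 to 2878 in control, 3719 and 2741 in CVS and 3876 and 3982 in CS, and the chromaffin marker *Chgb* 1093 to 1234, then 1194 and 1049, then 1566 and 1500. The macrophage marker *Mrc1* was 54.0 to 60.8 in control, 85.4 and 75.3 in CVS and 65.9 and 65.0 in CS, the Schwann cell marker *S100b* 14.6 to 17.7, then 26.8 and 29.5, then 19.8 and 17.9, and *Cox8b*, from brown fat and muscle, 27.3 to 39.4, then 15.4 and 20.1, then 22.3 and 39.6. The part of these cell types was not tested either.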

How the data were processed

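Adrenal RNA was pooled per library, enriched for polyadenylated RNA and sequenced as directional 50-base single reads. Alignment by the authors used Rsubread and the Rnor_6.0 build, and featureCounts gave the reads of each Ensembl gene. The deposited values are raw counts without normalization. The strand setting and annotation release are not given in the sources used here, so reads of overlapping genes may mix. Groups were taken from the labels. Each library is a separate pool of animals, so p-values rest on the spread between pools. In these tests the spread of each gene is drawn toward that of the other genes.

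A gene was tested if no library had fewer than 10 counts of it (13892 of 32754). With edgeR 4.0.16 (R 4.3.3), TMM factors, log2 fold changes, standard errors (the size of the fold change over the root of F) and quasi-likelihood tests (legacy calculation, the default) were computed on the 2 groups compared, with Benjamini-Hochberg adjustment over all genes tested. Genes passed at an adjusted p under 0.05, or 0.1 for CS against CVS. Intervals of fold changes used the residual degrees of freedom alone. The alternatives were DESeq2 1.42.0, other normalizations and filters, the replicate number or code prefix as a term, and leaving out each library. The fit of CS against control was tested on simulated data. These were drawn without pairing between libraries and with each gene varying like genes of its abundance. Correlations and ratios came from pandas 2.3.3, scipy 1.17.1 and numpy 2.4.6 in Python 3.11.15, and matplotlib 3.10.9 drew the figures.

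Same-numbered libraries deviated together from their group means (correlations of 0.21 to 0.463 across genes in all 6 pairs), so the numbers were treated as a possible pairing. The main fits, with their counts, standard errors and intervals, left this pairing out. It was fitted only among the alternatives, as the replicate block. In groups of 2 the deviations from the mean are mirror images, so CVS 1 with CS 1 and CVS 2 with CS 2 necessarily hold the same value (0.342). Most same-numbered pairs also share a code prefix, and the labels do not say what a number marks. Control 3 and CS 2, which share a code prefix but not a number, correlated at 0.194, about as Control 2 and CS 2 (0.21), which share a number but not a prefix.

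Symbols came from the study's supplementary tables (276 genes, 275 of them tested), since the RefSeq table holds no Ensembl identifiers. A symbol was found for 80% of the members of none of the 18 gene lists (at most 71.4%), so counts over lists were not made. Promoter windows were matched by symbol for both genes, *Eprs* by its synonym. The 2 genes, the lists and the tests were chosen with earlier results of these data known. The genes named were these 2, the members of the pathway lists that passed or had the smallest p in CS, the 5 named genes most like each, and the genes next to the threshold; marker genes are given beside the results. The authors' quantitative PCR was not analysed here.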

Additional observations from a re-analysis of the deposited data

How the results depend on the processing

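The number of genes passing in CS against control was 29, and 191 with DESeq2's Wald test, 232 with no filter, 418 with the replicate block, 527 with the code prefix as a term, 580 and 361 with all 7 libraries in 1 fit and the prefix or the replicate block, and 1 to 83 when 1 library was left out. In CVS against control it was 13, and 6 with the legacy calculation off, 124 with DESeq2, 7 with DESeq2's size factors, 151 with no filter, 8 with filterByExpr, 817 with the replicate block or the code prefix, 257 and 122 with all 7 libraries and the prefix or the block, and 0 (without Control replicate 3; 623 at an unadjusted p of 0.05) to 16 without 1 library. In CS against CVS it was 0 with edgeR (1020 at an unadjusted p of 0.05), and 45 with DESeq2, 391 with no filter, 843 with the replicate block, 287 and 520 with all 7 libraries and the prefix or the block, and 0 to 86 without 1 library, the 86 without CS replicate 1. The causes were not tested. The code prefix alone could not be fitted in CS against CVS, as no residual degrees of freedom remain. Where 1 library remained in a group, it was assumed to vary like the other group.

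The log2 fold change of *Creb3l1* in CS against control was 1.77 to 2.73 without 1 library, in CVS against control 0.848 with all 7 libraries and the code prefix and 0.573 to 0.813 without 1 library, and in CS against CVS 1.07 to 2.02 without 1 library. That of *Eprs* in CS against CVS was 0.909 with all 7 libraries and the prefix. With the replicate block *Creb3l1* had 2.22, 0.675 and 1.53 and *Eprs* 1.08, 0.0316 and 1.04 in CS and CVS against control and CS against CVS, so the pairing moved no value of either gene by more than its spread between replicates. The alternatives planned for the pathway lists were not run, since the lists lack symbols. With 2 pools per stress group, the spread within CS and CVS rests on 1 difference each.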
